A study of Mus musculus with 9 samples.

Results

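The comparison was between MSC-EVs-treated and NS-treated rd10 retinas at P28, and its members were the 3 MSC-EVs libraries and the 3 NS libraries among the 9 libraries of the study. In the rd10 mouse a mutation of Pde6b, the gene for the β subunit of phosphodiesterase in rods, leads to loss of rods and later of cones. All rd10 animals received 1 μl into the vitreous of both eyes at P14 and again at P21. The NS group received normal saline, and the MSC-EVs group received extracellular vesicles that human umbilical cord mesenchymal stem cells had released. According to the study, rd10 littermates were given either treatment. The remaining 3 libraries came from untreated WT mice (C57 BL/6J) of the same age, and they are given as levels beside the rd10 values and were not tested. The labels give neither the sex of the animals nor the number of retinas behind a library, so the p-values measure the spread between these libraries. The extraction text of the labels calls the injection intravenous, whereas the growth text and the design place it in the vitreous.

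In a degenerating retina, Müller glia, the radial glial cells that support all neurons, lower their homeostatic enzymes and raise a reactive program. Part of that program runs through gp130 (Il6st), the receptor chain that the leukemia inhibitory factor and oncostatin M receptors share, and through the transcription factor STAT3. Fibroblast growth factor 2 is raised by the same kind of injury and is known as a photoreceptor survival factor. Microglia, the resident macrophages, move to the photoreceptor layer and take up dying cells, and NF-κB drives many of their inflammatory genes.

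With MSC-EVs, 135 genes were higher and 37 lower than with NS at a Benjamini-Hochberg adjusted p under 0.05 (edgeR quasi-likelihood test, 14765 genes tested). These calls were 0.914% and 0.251% of the genes tested. Most changes were small. The median absolute log2 fold change of the 172 genes was 0.53, the smallest was 0.29, and 75 of them lay under 0.5. Only 9 genes, 0.061% of those tested, also reached a log2 fold change of 1 in size. In all 172 genes the 3 MSC-EVs libraries lay on the same side of the 3 NS libraries. Over all genes tested, the groups did not overlap in 12.9% with higher and in 13.3% with lower values in MSC-EVs, and an unadjusted p under 0.05 was reached by 11.6% and 8.6%. These shares are the background for the counts of list members given below. The median log2 fold change of all genes was -0.0016, and 49.6% of the genes were above 0. None of the 172 genes lay on chromosome Y, and 1 lay on chromosome X.

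The calls depended on which libraries were in the fit. When NS replicate 3 or MSC-EVs replicate 1 was left out, edgeR called 0 genes, while 1183 and 1207 genes were higher and 808 and 845 lower at an unadjusted p under 0.05. Without NS replicate 2 it called 23 higher and 9 lower, and without MSC-EVs replicate 2 it called 426 and 250. The 2 groups separated on the first principal component, which held 32.5% of the variance, with NS at -7.67, -24.1 and -18.8 and MSC-EVs at 24.4, 6.49 and 19.8. The second component, with 27.1%, set MSC-EVs replicate 2 (27.8) apart from MSC-EVs replicate 3 (-23.6) and NS replicate 3 (-16.9). The rd10 libraries held 19491721 to 62532357 counts, MSC-EVs replicate 3 being the deepest. Y-linked genes summed to 183 and 188 CPM in MSC-EVs replicates 1 and 2 and to 0.236 to 0.489 CPM in the other 4 rd10 libraries. By this RNA, MSC-EVs replicates 1 and 2 held male tissue and the other rd10 libraries did not. Sex was thus partly confounded with treatment. With the log2 of the summed Y-linked level as a covariate 89 genes were higher and 26 lower, and 52 of the 172 kept their call. That covariate sets MSC-EVs replicates 1 and 2 apart from all other rd10 libraries, so its treatment term rests in effect on MSC-EVs replicate 3. The fit therefore cannot separate sex from other differences between these libraries. The 172 calls also followed transcript length, as described with the ribosomal genes. With the trend of each library along transcript length and GC content removed, 39 genes were higher and 13 lower, and 49 of the 172 kept their call.

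**Figure D1:**
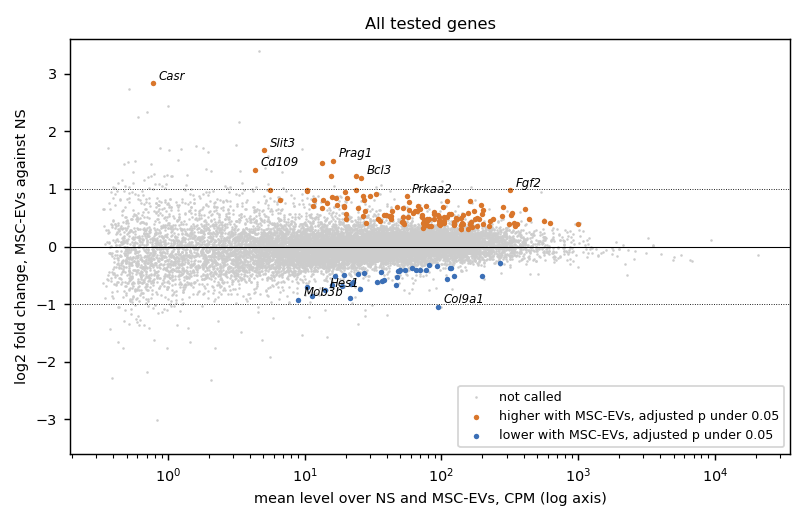
Log2 fold change of MSC-EVs against NS for every tested gene (vertical axis) against its mean level in CPM over both rd10 groups (horizontal log axis); orange and blue points passed an adjusted p under 0.05 and dotted lines mark a log2 fold change of 1 and -1. Of the 172 colored genes 135 lie above 0 and 37 below, and most of them lie between the dotted lines.

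Il6st, Osmr and Stat3, which belong to the gp130 and STAT3 route, rose with MSC-EVs. Il6st, on chromosome 13 from 112464070 to 112510086 (GRCm38), was at 230, 204 and 221 CPM in the NS libraries and at 359, 316 and 374 CPM in the MSC-EVs libraries. The groups did not overlap, and the log2 fold change was 0.68 (standard error 0.08, adjusted p = 0.015). Osmr, the oncostatin M receptor chain that pairs with gp130, on chromosome 15 from 6813577 to 6874969, was at 76.5, 74.4 and 92.5 CPM in NS retinas and at 150, 131 and 139 CPM with MSC-EVs. Its log2 fold change was 0.79 (standard error 0.09, adjusted p = 0.0156), and every MSC-EVs library again lay above every NS library. Stat3, on chromosome 11 from 100885098 to 100939540 and overlapped by Stat5a on the other strand, was at 234, 289 and 264 CPM in NS retinas and at 385, 387 and 372 CPM with MSC-EVs (log2 fold change 0.54, standard error 0.08, adjusted p = 0.0252). Beside these, WT retinas held 163 ± 6.83 CPM of Il6st, 10.7 ± 0.706 CPM of Osmr and 80.8 ± 3.41 CPM of Stat3 (SD, n = 3), so that the MSC-EVs libraries lay further from the WT level than the NS libraries. Stat3 was no longer called when the trend with length and GC content was removed (log2 fold change 0.46, adjusted p = 0.0733) or with the Y-linked covariate (0.50, adjusted p = 0.0668).

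Fgf2, on chromosome 3 from 37348346 to 37410108, had the largest change among these genes. It was at 200, 249 and 193 CPM in NS retinas and at 446, 369 and 447 CPM with MSC-EVs, against 50.4 ± 3.38 CPM in WT. The log2 fold change was 0.98 (standard error 0.12, adjusted p = 0.0209) and was 0.89 with the length and GC trend removed, still called. Fgf2 shares its locus with Nudt6 on the other strand, and the sources used here do not say whether the counting used strand. Cd44, a hyaluronan receptor that reactive glia carry, rose from 138 ± 15.4 to 211 ± 27.1 CPM (SD, n = 3), a log2 fold change of 0.62 (standard error 0.11, adjusted p = 0.046). This call was lost under upper-quartile scaling (adjusted p = 0.0562), with the Y-linked covariate (adjusted p = 0.132) and with the length and GC trend removed (adjusted p = 0.0929).

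**Figure D2:**
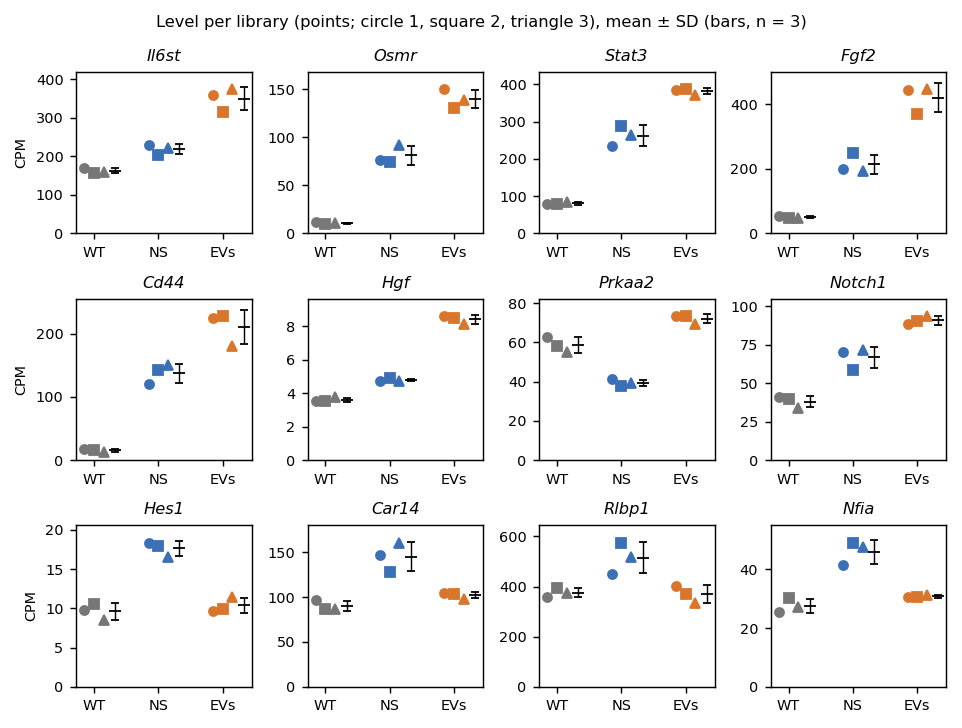
Level in CPM (vertical axis from 0) of 12 genes in each WT, NS and MSC-EVs library, with the marker shape giving the replicate number and the black bar the mean ± SD of 3 libraries. In the first 8 panels every MSC-EVs library lies above every NS library, and in the last 4 panels every one lies below.

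The whole list of 36 tested reactive gliosis genes had a median log2 fold change of 0.32, with 31 genes above 0 and 5 below. The 5 genes that rose, and none that fell, at an adjusted p under 0.05 were Il6st, Osmr, Fgf2, Stat3 and Cd44. Another 7 members were higher at an unadjusted p under 0.05 (12 in all, 0 lower), and 11 members were higher in every MSC-EVs library. Over all genes, 11.6% were higher and 8.6% lower by that p, and 12.9% were higher in every MSC-EVs library. The acute-phase genes A2m and Serpina3n were chosen after their values were seen. A2m had a log2 fold change of 0.46 (standard error 0.10, adjusted p = 0.0634), and Serpina3n 0.48 (standard error 0.12, adjusted p = 0.0882), both higher in every MSC-EVs library. Gfap, the intermediate filament of reactive glia, had 0.60 (standard error 0.24, adjusted p = 0.257). This value is of RNA, whereas the study reports weaker staining of the Gfap protein with MSC-EVs. MSC-EVs replicate 3 lay within the NS range for the list as a whole. The mean deviation of its members from their mean over the 6 libraries, in log2(CPM + 0.5), was -0.17, -0.03 and -0.23 with NS and 0.13, 0.49 and -0.19 with MSC-EVs, and the median fold change was 0.49 without MSC-EVs replicate 3 and 0.04 with that library alone. Il6st, Osmr and Fgf2 did not share this split, since replicate 3 had the highest or second highest level of each.

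Genes of resting Müller glia moved the other way. Hes1, a transcriptional repressor downstream of Notch, on chromosome 16 from 30064384 to 30067796, was at 18.4, 18 and 16.6 CPM in NS retinas and at 9.68, 9.97 and 11.5 CPM with MSC-EVs. Its log2 fold change was -0.76 (standard error 0.11, adjusted p = 0.0252), down to about the level of WT retinas (9.61 ± 1.03 CPM). Car14, a membrane carbonic anhydrase of Müller glia and pigment epithelium, on chromosome 3 from 95897768 to 95904691 and overlapped by Aph1a on the other strand, was at 147, 128 and 161 CPM in NS retinas and at 105, 103 and 98.3 CPM with MSC-EVs. It fell by 0.51 (standard error 0.08, adjusted p = 0.032). With the length and GC trend removed Hes1 stayed called and Car14 did not (adjusted p = 0.0796), and with the Y-linked covariate neither passed (adjusted p = 0.0876 and 0.0728). Nfia, a glial and bipolar transcription factor on chromosome 4 from 97772734 to 98118874, was at 41.4, 49.1 and 47.6 CPM in NS retinas and at 30.6, 30.4 and 31.3 CPM with MSC-EVs (log2 fold change -0.58, standard error 0.09, adjusted p = 0.0261). On the deposited FPKM values its change was only -0.20 on the log2(FPKM + 1) scale and was not called by limma (adjusted p = 0.303), and with the Y-linked covariate its adjusted p was 0.0828.

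Of the 28 tested homeostatic Müller genes, 25 had a log2 fold change below 0 and the median was -0.17. Hes1 and Car14 fell at an adjusted p under 0.05, 12 members were lower and 0 higher at an unadjusted p under 0.05, and 9 were lower in every MSC-EVs library. Over all genes, 8.6% were lower and 11.6% higher by that p, and 13.3% were lower in every MSC-EVs library. Rlbp1, the cellular retinaldehyde-binding protein of the visual cycle, was at 452, 576 and 520 CPM in NS retinas and at 404, 372 and 334 CPM with MSC-EVs (log2 fold change -0.48, standard error 0.10, adjusted p = 0.0596). Glul, glutamine synthetase, was at 3080, 2090 and 2860 CPM in NS retinas and at 1860, 1710 and 2130 CPM with MSC-EVs, where the groups overlapped (adjusted p = 0.14), and it shares 11.9% of the 50-base stretches of its transcripts with other genes. The glutamine transporter Slc38a3 and the peroxiredoxin Prdx6 had log2 fold changes of -0.25 and -0.35 (adjusted p = 0.0859 and 0.104). The list's level was 0.13, 0.08 and 0.13 in the NS libraries and -0.07, -0.09 and -0.18 in the MSC-EVs libraries, without overlap, and its median was -0.19 with the length and GC trend removed. Summed over the list, the NS libraries held 12900, 11700 and 12700 CPM and the MSC-EVs libraries 10900, 10700 and 10600 CPM. WT retinas held 7610, 7810 and 7430 CPM, so by this sum the MSC-EVs libraries lay nearer the WT level. CPM are shares of a library, and rod genes summed to 120000 to 128000 CPM in WT but 28200 to 38900 CPM in NS retinas. The part of that rod difference in the distance from WT was not tested. In bulk RNA, fewer cells of a type and less RNA per cell cannot be told apart. The 9 astrocyte genes had a median of -0.21 with 8 below 0, among them the gap junction gene Gja1 (-0.73, adjusted p = 0.152), the transporter Slc1a2 (-0.22, adjusted p = 0.155) and the optic nerve astrocyte factor Pax2 (-0.99, adjusted p = 0.201), while Gfap, on the same list, was the exception above 0.

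**Figure D3:**
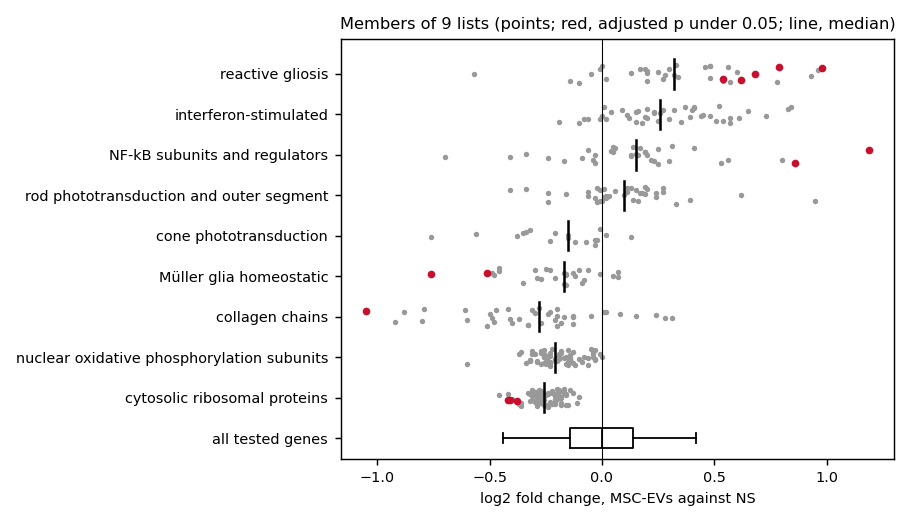
Log2 fold change of MSC-EVs against NS (horizontal axis) for each tested member of 9 gene lists, with the median as a black line and called genes in red; the bottom box shows the quartiles and the 5th to 95th percentile of all tested genes. Ribosomal and oxidative phosphorylation genes lie almost wholly below 0 in a narrow band, whereas gliosis, interferon and NF-κB regulator genes spread mostly above 0.

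Among growth factors, 4 of the 37 tested neurotrophic and survival genes rose and 0 fell at an adjusted p under 0.05. Over all genes, these shares were 0.914% and 0.251%. The called genes were Il6st, Osmr, Fgf2 and Hgf, and Il6st, Osmr and Fgf2 were also called on the gliosis list. Of the 37 genes 19 were above 0 and 18 below, and the median was 0.05. With an unadjusted p under 0.05, 10 were higher and 4 lower (11.6% and 8.6% of all genes). Hgf, hepatocyte growth factor, on chromosome 5 from 16553495 to 16620152, was at 4.76, 4.89 and 4.76 CPM in NS retinas and at 8.63, 8.52 and 8.13 CPM with MSC-EVs (log2 fold change 0.81, standard error 0.13, adjusted p = 0.031, or 0.0926 with the Y-linked covariate). Its receptor Met, chosen after its value was seen, was at 25.2, 16 and 29 CPM in NS retinas and at 42.8, 39.2 and 41.3 CPM with MSC-EVs (log2 fold change 0.81, adjusted p = 0.0867). The midkine gene Mdk was at 7.94 ± 0.893 CPM in NS retinas and 4.91 ± 0.40 CPM with MSC-EVs (SD, n = 3; log2 fold change -0.70, adjusted p = 0.0621). Betacellulin (Btc), a ligand of the EGF receptor, was the called member among 16 EGF family genes, at 24.1, 24.1 and 20.5 CPM in NS retinas and 46, 33.1 and 50.5 CPM with MSC-EVs (log2 fold change 0.92, adjusted p = 0.0401, or 0.0733 with the length and GC trend removed). The receptor gene Egfr had a log2 fold change of -0.32 and the ligand genes Egf and Areg of -0.57 and -1.76 (adjusted p = 0.14, 0.215 and 0.0741), each lower in every MSC-EVs library, whereas Lrig1, an inhibitor of these receptors, had 0.29 (adjusted p = 0.169).

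In the TGF-β and activin list of 39 genes the median was 0.04. Smad5, a transducer of bone morphogenetic proteins, rose from 83 ± 3.33 to 113 ± 10.1 CPM (SD, n = 3; log2 fold change 0.45, adjusted p = 0.038), and the co-receptor Cd109 rose as well (1.33, adjusted p = 0.0401). Smad4, the receptor gene Acvr1 and Smad2 had log2 fold changes of 0.37, 0.34 and 0.23 (adjusted p = 0.0558, 0.0657 and 0.0999), each higher in all MSC-EVs libraries. The activin receptor Acvr2b, which was not on the list and was chosen after its value was seen, rose from 13.4 ± 2.34 to 25.9 ± 2.41 CPM (log2 fold change 0.95, adjusted p = 0.0252). With the length and GC trend removed, neither Smad5 nor Cd109 was called, and the list median was -0.04.

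Genes for 2 proteins that bind and regulate NF-κB or its inhibitors, Tnip2 and Bcl3, rose. Tnip2, which binds A20 and limits NF-κB, on chromosome 5 from 34496087 to 34513991, was at 10.1, 13 and 10.8 CPM in NS retinas and at 19.8, 18.1 and 23.2 CPM with MSC-EVs (log2 fold change 0.86, standard error 0.13, adjusted p = 0.0261). Bcl3, a nuclear IκB protein, was at 11.9, 20.4 and 15.2 CPM in NS retinas and at 39, 38.5 and 30.5 CPM with MSC-EVs (log2 fold change 1.19, adjusted p = 0.0447). Tnip2 kept its call under every setting that used all 6 libraries, and Bcl3 lost it under upper-quartile scaling (adjusted p = 0.0507), with the Y-linked covariate (0.119) and with the length and GC trend removed (0.0548). Irak3, the kinase-like inhibitor of toll-like receptor signaling, was at 2.84, 2.84 and 2.70 CPM in NS retinas and at 4.67, 5.16 and 4.71 CPM with MSC-EVs (0.80, standard error 0.17, adjusted p = 0.0582). Ripk1 and Map3k7, kinases upstream of NF-κB, had log2 fold changes of 0.53 and 0.25 (adjusted p = 0.0736 and 0.124). Of the 37 tested subunits and regulators 27 were above 0, and the median was 0.15. At an unadjusted p under 0.05, 10 were higher and 0 lower (11.6% and 8.6% of all genes). In every MSC-EVs library, 13 were higher and 0 lower (12.9% and 13.3% of all genes). The median fell to 0.05 without MSC-EVs replicate 2, where the deviation of the list was largest (0.20, against 0.05 and -0.05 in replicates 1 and 3 and -0.10, -0.03 and -0.08 with NS).

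The genes that NF-κB induces are a separate list. The 32 tested target genes had a median of 0.15, but it was -0.25 without MSC-EVs replicate 2, and the level of the list was -0.06, 0.56 and -0.31 in the MSC-EVs libraries and -0.02, 0.06 and -0.22 in the NS libraries. Apart from Bcl3 no target passed the adjusted threshold. The growth factor gene Csf1 and the subunit gene Nfkb2 were higher in every MSC-EVs library, with log2 fold changes of 0.53 and 0.56 (adjusted p = 0.121 and 0.143), and Saa3 and Nos2 had -0.82 and 0.58 (adjusted p = 0.424 and 0.438). In the toll-like receptor list the adaptor Tirap rose from 17.4, 19.4 and 19.9 CPM with NS to 32.3, 31.1 and 26.5 CPM with MSC-EVs (log2 fold change 0.67, adjusted p = 0.0261, or 0.0548 with the length and GC trend removed). Myd88, Tlr4, Traf6 and Ticam1 had 0.31, 0.53, 0.19 and -0.46 (adjusted p = 0.222, 0.268, 0.228 and 0.329), and the median of the 20 genes was 0.25.

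The title of the series names miR-146a, a microRNA that is known to target Traf6 and Irak1 and so to restrain toll-like receptor signaling. The mature sequence below is that of mouse miR-146a-5p in RefSeq (GRCm38.p6, chr11:43374435-43374456, minus strand), with the seed of bases 2 to 8 in capitals. Under it stand a 22-base window of the longest GENCODE M21 transcript of 3 listed targets, within the 3′ UTR, with the 7 bases that pair with the seed in capitals. The site of Nr4a3 is at chr4:48084286-48084292 (plus strand), the first site of Traf6 at chr2:101697959-101697965 (plus strand), and that of Notch1 at chr2:26459264-26459270 (minus strand), all in GRCm38.
miR-146a-5p: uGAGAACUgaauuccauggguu
Nr4a3: gtcaacctggacagAGTTCTCt
Traf6: ccgctctggtgttgAGTTCTCa
Notch1: caagaaaataaactAGTTCTCa
The levels of these 3 genes stood in different order between the groups. Nr4a3, a nuclear receptor, was at 28.8, 20.2 and 16.7 CPM in NS retinas and at 5.76, 10.9 and 5.89 CPM with MSC-EVs (log2 fold change -1.57, adjusted p = 0.0752). WT retinas held 8.04 ± 1.8 CPM of Nr4a3 (SD, n = 3). Traf6, whose 3′ UTR held 4 such sites, was at 40.2, 42.1 and 41.1 CPM in NS retinas and at 48.1, 49.3 and 42.8 CPM with MSC-EVs (0.19, adjusted p = 0.228). Notch1 rose from 70, 58.8 and 71.5 CPM to 88.1, 90.6 and 93.7 CPM (0.45, standard error 0.08, adjusted p = 0.0424), a call that was lost with the length and GC trend removed (adjusted p = 0.0748). Of the 14 tested genes on the list of miR-146a-5p targets, 8 were above 0 and 6 below, and the median was 0.09. Over all genes, 1777 of the 12460 tested genes with an annotated 3′ UTR held the 7 bases AGTTCTC on the sense strand, a share of 14.3%. Their median log2 fold change was 0.044, with 40.2% below 0, 36 called higher and 5 called lower. Of all 12460 genes, 126 were called higher and 31 lower. In the 10683 genes without the site the median was 0, 50% were below 0, and 90 were called higher and 26 lower. The genes with a site had a longer 3′ UTR (median 2936 against 1233 bases), and a match of 7 bases is no measured binding site. The fold change also followed transcript length, as described with the ribosomal genes, and the part of length in these values was not tested. For Nr4a3 the study reports a luciferase test in which miR-146a lowered the signal of its 3′ UTR, less so with mutated sites. In cultured photoreceptor-like and microglial cells it also reports more miR-146a-5p and less Nr4a3 after MSC-EVs. An inhibitor of miR-146a-5p raised Nr4a3 there. The study predicted 2 sites in Nr4a3, whereas the transcript used here held 1 match of this kind.

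Lists of microglial, infiltrating and interferon-induced genes divided the MSC-EVs libraries. The 45 tested interferon-stimulated genes had a median of 0.26 with 40 above 0, but 0 were called, 2 were higher at an unadjusted p under 0.05 and 1 was higher in every MSC-EVs library. The last 2 counts are smaller shares than the 11.6% and 12.9% of all genes. Their level was 0.50, 0.44 and -0.54 in MSC-EVs replicates 1, 2 and 3 and 0.29, -0.23 and -0.46 in the NS libraries. The median was 0.55 without MSC-EVs replicate 3 and -0.53 with that library alone, so its sign rested on which libraries were taken. Stat2 and Irf9, parts of an interferon-activated transcription factor, had log2 fold changes of 0.65 and 0.57 (adjusted p = 0.164 and 0.174), and Gbp5, Irf8 and Parp14 had 0.84, 0.40 and 0.83 (adjusted p = 0.253, 0.27 and 0.282).

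The same split held for the cell lists. Homeostatic microglia genes summed to 763, 691 and 624 CPM with NS and to 756, 887 and 546 CPM with MSC-EVs, against 162 to 165 CPM in WT. All 24 were above 3 counts in every rd10 library, 0 were called, and the median was 0.05, or -0.07 without MSC-EVs replicate 2. P2ry13 and Sall1 had log2 fold changes of 0.50 and 0.46 (adjusted p = 0.183 and 0.228), and Csf1r, Ctss and Itgam ranged from 0.28 to 0.38 (adjusted p = 0.423 to 0.49). Disease-associated microglia genes had a median of -0.13 with 21 of 28 below 0 and 0 called. They summed to 5630 to 6350 CPM in NS retinas and 4850 to 5880 CPM with MSC-EVs, and the genes with the smallest p after Csf1 were Lpl (-0.18), Apoe (-0.17), Ccl3 (1.02) and Timp2 (-0.15), with adjusted p from 0.322 to 0.378.

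Monocyte and neutrophil genes summed to 83 to 112 CPM in NS retinas and 77.1 to 110 CPM with MSC-EVs, and lymphocyte genes to 9.56 to 15.2 and 5.74 to 17.9 CPM, the lowest value of each being that of MSC-EVs replicate 3. None of the 13 and 10 tested members was called, at medians of 0.06 and -0.08. Csf3r, F10, S100a4 and Vcan had adjusted p from 0.406 to 0.543, and Il7r, Cd8a, Cd28, Gzmb and Lck from 0.365 to 0.74. The lists of Fc receptors and ITAM signaling, of the inflammasome and interleukin 1, and of alternative activation had medians of 0.23, 0.25 and 0.27 and, among the MSC-EVs libraries, the lowest level in replicate 3. Without MSC-EVs replicate 3 these medians were 0.45, 0.37 and 0.67, and with that library alone they were -0.16, -0.16 and -0.47.

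The called member of these lists was Tgm2, a transglutaminase of alternatively activated macrophages that reactive cells of other types also make, with 35.4, 36.8 and 37.8 CPM in NS retinas and 67.8, 62.3 and 46.6 CPM with MSC-EVs (log2 fold change 0.68, adjusted p = 0.0489). Its call was lost with DESeq2's size factors (adjusted p = 0.0532), upper-quartile normalization, the Y-linked covariate and the length and GC removal. The kinase Fgr and the receptors Cd300lf and Treml2 were higher in every MSC-EVs library, with log2 fold changes of 1.34, 1.32 and 1.32 (adjusted p = 0.0516, 0.0714 and 0.095), ahead of Csf2rb and Lyn with 0.79 and 0.43 (adjusted p = 0.143 and 0.156). The interleukin 1 receptor antagonist Il1rn had 1.23 at levels of 0.274 to 0.587 CPM in NS retinas and 0.667 to 1.79 CPM with MSC-EVs (adjusted p = 0.196). The receptor chains Il1rap and Il1r1 had 0.46 and 0.56 (adjusted p = 0.194 and 0.206), the cytokine gene Il18 -0.45 (adjusted p = 0.111) and the sensor gene Nlrc4 -0.76 (adjusted p = 0.335). Fgl2, Arg1 and Gas6 of the alternative activation list had 1.05, 3.40 and -0.12 (adjusted p = 0.104, 0.193 and 0.3). Arg1 was at 0.574, 1.22 and 0.595 CPM in NS retinas and at 13.6, 10.7 and 0.954 CPM with MSC-EVs, so that replicate 3 lay within the NS range. Its log2 fold change was 3.96 without MSC-EVs replicate 3, where edgeR called it (adjusted p = 0.000419), and 0.29 with that library alone or with the Y-linked covariate (adjusted p = 0.794 and 0.716). MSC-EVs replicate 3 was also thinned to the median depth of the other rd10 libraries. In that fit Arg1 had a log2 fold change of 3.43, and 165 of the 172 genes kept their call. The part of the library split, of depth or of the Y-linked difference in these immune values was not tested beyond the fits named.

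**Figure D4:**
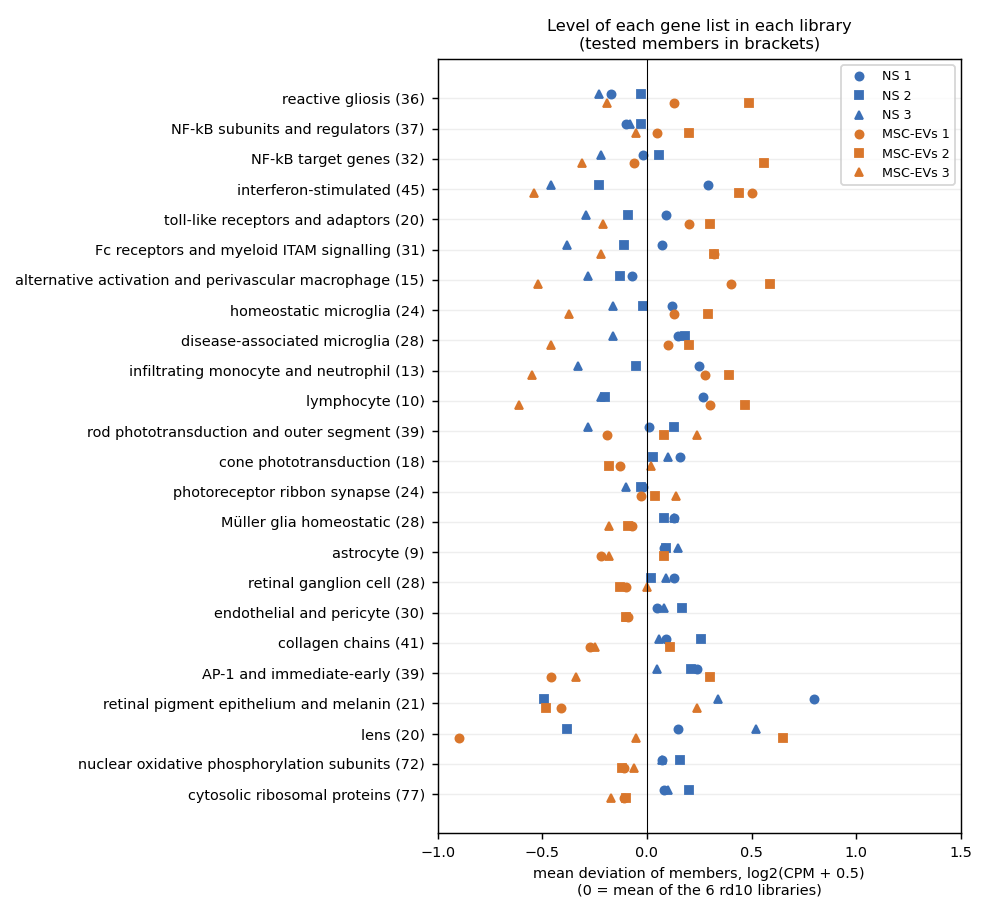
Mean deviation of the tested members of 24 gene lists from their mean over the 6 rd10 libraries, in log2(CPM + 0.5) (horizontal axis), with NS in blue, MSC-EVs in orange and the marker shape giving the replicate number. Blue and orange do not overlap for the ribosomal, oxidative phosphorylation, endothelial, Müller, cone and ganglion cell lists, whereas MSC-EVs replicate 3 (orange triangles) is the lowest library in the interferon, microglial, monocyte and lymphocyte lists.

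No rod gene passed the test. The 39 rod genes summed to 34400, 38900 and 28200 CPM in NS retinas and 30300, 37400 and 40800 CPM with MSC-EVs, against 120000 to 128000 CPM in WT, and the median log2 fold change was 0.10 with 27 above 0 and 0 called. Without MSC-EVs replicate 3 it was 0.00, and with it alone 0.26. Impg2, a proteoglycan of the matrix around photoreceptors, was at 388, 401 and 309 CPM in NS retinas and at 692, 505 and 914 CPM with MSC-EVs (0.95, standard error 0.24, adjusted p = 0.116). Its partner Impg1 had 0.39 (adjusted p = 0.295), and Rgs9, which shuts off transducin, and Rp1, a protein of the outer segment axoneme, had 0.62 and 0.33 (adjusted p = 0.122 and 0.181), higher in every MSC-EVs library. Nr2e3, a rod-specifying nuclear receptor, had -0.34 (adjusted p = 0.203).

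Cone genes leaned the other way. Of 18 tested genes 16 were below 0, the median was -0.15, and 0 were called. At an unadjusted p under 0.05, 6 were lower and 0 higher (8.6% and 11.6% of all genes). Pde6h, the inhibitory subunit of the cone phosphodiesterase, was at 160, 152 and 151 CPM in NS retinas and 125, 112 and 128 CPM with MSC-EVs (log2 fold change -0.34, standard error 0.07, adjusted p = 0.052), and it was called with the length and GC trend removed (-0.44). The cone transducin genes Gngt2 and Gnat2 had -0.38 and -0.35 (adjusted p = 0.0596 and 0.0908), the channel gene Cngb3 -0.32 (adjusted p = 0.161) and cone arrestin Arr3 -0.76 (adjusted p = 0.186). The list median was -0.29 without MSC-EVs replicate 3 and 0.01 with that library alone.

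Of the photoreceptor transcription factors Rorb fell, from 221, 247 and 237 CPM with NS to 155, 188 and 147 CPM with MSC-EVs (log2 fold change -0.52, standard error 0.10, adjusted p = 0.0424). Mef2d, Samd7, Neurod1 and Casz1 had 0.25, 0.37, 0.23 and 0.27 (adjusted p = 0.0981 to 0.203), and the list of 18 had a median of 0.03. In the ribbon synapse list, where photoreceptors hand their signal to bipolar cells, 17 of 24 genes were above 0 at a median of 0.05. Lrit1, a leucine-rich protein of the photoreceptor synapse, rose from 341, 302 and 290 CPM to 400, 394 and 432 CPM (0.40, adjusted p = 0.0447), against 540 ± 13.3 CPM in WT. The scaffold genes Bsn, Ctbp2, Pclo and Dmd had 0.34, 0.27, 0.28 and 0.24 (adjusted p = 0.0666 to 0.0915), each higher in every MSC-EVs library, and with the length and GC trend removed the median was 0.02 and no gene of the list was called.

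Among inner retinal neurons, 2 small ON bipolar genes fell. Pcp2, a modulator of G protein signaling, was at 82.6, 86.2 and 97.4 CPM in NS retinas and 65.9, 63.7 and 69.6 CPM with MSC-EVs (log2 fold change -0.41, adjusted p = 0.0451), and Gng13, a G protein gamma subunit of the mGluR6 cascade, was at 62.3, 51.2 and 55.3 CPM and 42.8, 41.5 and 40.9 CPM (-0.43, adjusted p = 0.0489). Both lost their call with the Y-linked covariate and with the length and GC trend removed (adjusted p = 0.132 and 0.339), and they are overlapped on the other strand by Pet100 and Chtf18. The synaptic organizers Nyx and Lrit3 had 0.56 and 0.42 and Car8 0.27 (adjusted p = 0.0657, 0.093 and 0.143), higher in every MSC-EVs library, and over the 19 genes of this list the median was -0.08 with 6 above 0. In the bipolar identity list of 22 genes Nfia fell and the calcium sensor gene Syt2 rose from 64.7 ± 1.28 to 83.6 ± 2.80 CPM (SD, n = 3; 0.37, adjusted p = 0.0343, or 0.095 with the length and GC trend removed), while Isl1, Zfhx4 and Scgn had -0.33, 0.40 and -0.26 (adjusted p = 0.0657, 0.0908 and 0.103).

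Ganglion cell genes were below 0 in 24 of 28, with a median of -0.18 and 0 called. At an unadjusted p under 0.05, 8 were lower and 0 higher (8.6% and 11.6% of all genes). Stmn2, Cartpt, Sncg, Opn4 and Pou4f2 had log2 fold changes of -0.21, -0.22, -0.27, -0.46 and -0.37 (adjusted p = 0.0962 to 0.164). Amacrine genes had a median of -0.10 and horizontal cell genes of -0.06, with 0 called of 27 and 14. The members with the smallest p were Pax6 (-0.24), Calb2 (-0.20), Tfap2a (-0.31), Slc17a8 (0.22) and Gad2 (0.16) for the former, and Onecut2 (0.42), Septin4 (-0.20), Tfap2a, Calb1 (-0.10) and Onecut1 (0.26) for the latter, with adjusted p from 0.0904 to 0.458. Of 25 GABA and glycine receptor genes 1 rose, the glycine receptor gene Glra1, from 9.86, 5.28 and 6.40 CPM to 20.3, 17.9 and 20.8 CPM (1.45, standard error 0.21, adjusted p = 0.0261, or 0.0592 with the Y-linked covariate). Gabrb2, Gabrr2, Glrb and Glra2 had 0.53, 0.30, -0.14 and -0.15 (adjusted p = 0.0889, 0.0958, 0.249 and 0.328), and the median was 0.00.

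The most uniform shift was that of cytosolic ribosomal protein genes. All 77 tested genes had a log2 fold change below 0, between -0.46 and -0.10, with a median of -0.26. Of them 71 were lower at an unadjusted p under 0.05 (8.6% of all genes) and 73 were lower in every MSC-EVs library (13.3% of all genes), but only Rps29, Rpl23 and Rps12 fell at an adjusted p under 0.05. Rps29 was at 59, 55.7 and 52.5 CPM in NS retinas and 42.9, 41 and 40.8 CPM with MSC-EVs (log2 fold change -0.42, standard error 0.07, adjusted p = 0.038). Rpl23 was at 122, 139 and 132 CPM and 106, 99.2 and 96.6 CPM (-0.38, adjusted p = 0.0425), and Rps12 at 77.9, 87.3 and 74.8 CPM and 61.9, 62.4 and 56 CPM (-0.41, adjusted p = 0.0489). Next came Rps10 and Rpl23a with -0.30 and -0.27 (adjusted p = 0.0526 and 0.0527). The level of the list was 0.08, 0.20 and 0.10 in the NS libraries and -0.11, -0.10 and -0.17 in the MSC-EVs libraries. Ribosomal protein genes have many processed copies, and Rps29, Rpl23 and Rps12 share 18.9%, 18.8% and 25% of their 50-base stretches with other genes. The median was -0.26 in the 14 genes that share under 10% and -0.24 in the 42 that share at least 20%.

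Nuclear genes for oxidative phosphorylation, the respiratory chain and ATP synthase of mitochondria, moved in the same way. All 72 had a log2 fold change at or below 0, with a median of -0.21 and 0 called. At an unadjusted p under 0.05, 42 were lower and 0 higher (8.6% and 11.6% of all genes), and 48 were lower in every MSC-EVs library (13.3% of all genes). Their level was 0.07, 0.16 and 0.07 with NS and -0.11, -0.12 and -0.06 with MSC-EVs. The 13 mitochondrially encoded genes had a median of -0.19 with 12 below 0, but their libraries overlapped (0.29, -0.06 and 0.03 with NS, 0.00, -0.16 and -0.10 with MSC-EVs).

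These genes are short, and the fold change followed transcript length over the whole transcriptome. The median log2 fold change was -0.20 for the 521 genes whose longest annotated transcript was up to 1000 bases, -0.12 from there to 2000, -0.02 to 4000, 0.06 to 8000 and 0.16 above 8000 bases. Without the ribosomal and oxidative phosphorylation genes, the 454 shortest genes still had a median of -0.18. The slope of a library's deviation per doubling of length was -0.022, -0.07 and -0.036 with NS and 0.055, 0.032 and 0.041 with MSC-EVs, so that the sign of the slope was the same within each group. The genes called higher had a median length of 5860 bases and those called lower of 2147, against 3473 for all tested genes. With each library's trend with length and GC content removed, the ribosomal median was -0.12, with 74 of 77 genes below 0, 25 lower at an unadjusted p under 0.05 and 0 called. That of oxidative phosphorylation was -0.07, with 56 of 72 below 0 and 7 lower at an unadjusted p under 0.05. The medians of the gliosis list and the Müller list were 0.38 and -0.19 under the same removal. The part of the length trend in the ribosomal and oxidative phosphorylation values was not tested beyond this fit.

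**Figure D5:**
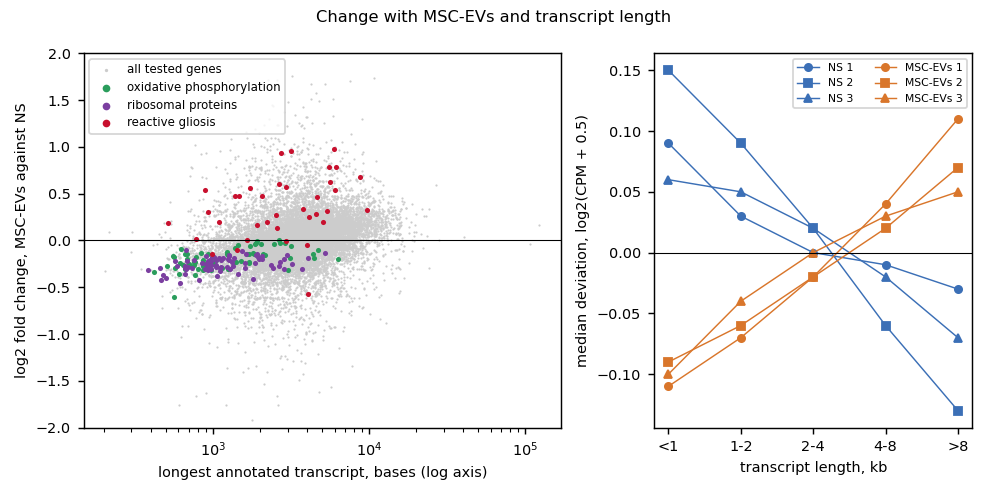
Left, log2 fold change of MSC-EVs against NS against the length of the longest annotated transcript (log axis), with 12 genes outside the plotted range; right, the median deviation in log2(CPM + 0.5) of the genes in 5 length classes, one line per library. Short genes lie above 0 in the 3 NS libraries and below 0 in the 3 MSC-EVs libraries, and the order is reversed for transcripts over 4000 bases.

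Most collagen and vessel genes had log2 fold changes below 0, while those of matrix metalloproteinases and their inhibitors had a median of 0.11 with 12 of 21 above 0. Of these 21 genes 4 were higher and 1 lower at an unadjusted p under 0.05 (11.6% and 8.6% of all genes). Of 41 tested collagen chains 34 were below 0 with a median of -0.28, and Col9a1, a chain of type IX collagen, fell (127, 130 and 127 CPM with NS, 62.3, 70.9 and 52.5 CPM with MSC-EVs, log2 fold change -1.05, adjusted p = 0.00911). Col12a1, Col2a1 and Col26a1 had -0.60, -0.42 and -0.88 (adjusted p = 0.0828, 0.121 and 0.124), and the basement membrane chain Col4a1 had 0.31 (adjusted p = 0.0725), higher in every MSC-EVs library. The level of the list was -0.27, 0.11 and -0.25 in the MSC-EVs libraries, so replicate 2 lay within the NS range of 0.06 to 0.26. In the fibroblast list of 14 genes the small proteoglycan gene Fmod fell from 61.3, 49.7 and 60.1 CPM to 36.5, 40.1 and 31.3 CPM (-0.67, adjusted p = 0.0343), with Slc6a13, Ogn, Foxc1 and Slc47a1 at -1.13, -1.66, -0.43 and 0.57 (adjusted p = 0.174 to 0.303) and a list median of -0.25. Endothelial and pericyte genes had a median of -0.24 with 22 of 30 below 0, levels of 0.05, 0.17 and 0.08 with NS and -0.09, -0.10 and -0.10 with MSC-EVs, and 0 called. Slco1a4, a transporter of the blood-retina barrier, had -0.43 (adjusted p = 0.0657), and Rgs5, Tek, Abcb1a and Tagln had -0.27, -0.43, -0.28 and -0.80 (adjusted p = 0.142 to 0.248). Of the lysyl oxidases, which cross-link collagen, Loxl4 rose from 9.49, 10.7 and 8.01 CPM to 21.3, 16.4 and 27.7 CPM (1.23, adjusted p = 0.038, or 0.0641 with the length and GC trend removed), whereas Loxl1, Loxl3, Lox and Loxl2 had -0.46, -0.42, -0.34 and 0.02 (adjusted p = 0.132, 0.205, 0.652 and 0.92).

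RNA of neighboring tissue varied between libraries of the same group. Pigment epithelium and melanin genes summed to 639, 259 and 451 CPM in NS retinas and 252, 268 and 472 CPM with MSC-EVs, lens genes to 170 to 215 and 110 to 298 CPM, ciliary body and iris genes to 384 to 468 and 355 to 439 CPM, and cornea and conjunctiva genes to 421 to 460 and 366 to 408 CPM. Their medians were -0.45, -0.05, -0.33 and 0.08, and the range of the pigment epithelium and lens lists within a group exceeded the difference between groups. The cornea sums did not overlap between the groups. That list includes Pax6, which is also on the amacrine list, and only 6 of its 17 genes were tested, so its sum is no measure of corneal RNA. Of the pigment genes Slc45a2 and Mlana were lower in every MSC-EVs library (-1.27 and -1.63, adjusted p = 0.114 and 0.17), and Pmel, Cldn19 and Tyrp1 had -1.53, -0.56 and -1.23 (adjusted p = 0.193, 0.244 and 0.325). Of the ciliary genes Zic1, Slc4a5, Mab21l1, Wfdc1 and Otx1 had -0.41, -0.26, 0.18, -0.41 and -0.66 (adjusted p = 0.179 to 0.354). Of the crystallin and lens genes Cryga, Cryab, Bfsp2, Crygb and Crygf had -2.32, -0.16, -0.67, -0.91 and -1.03 (adjusted p = 0.293 to 0.561). In the cornea list Lad1 rose from 11.4, 15.6 and 15.6 CPM to 33, 31.4 and 34.5 CPM (1.22, adjusted p = 0.00911), while Pax6, Perp, Krt12 and Sfn had -0.24, -0.55, 0.76 and -0.28 (adjusted p = 0.0974 to 0.524). Erythrocyte genes summed to 64.3 to 67.2 and 57.9 to 71.6 CPM and optic nerve and oligodendrocyte genes to 139 to 141 and 137 to 145 CPM, with Olig2 at 0 counts in all 6 libraries. The globin genes Hba-a1, Hba-a2, Hbb-bs and Hbb-bt and Alas2 had adjusted p from 0.476 to 0.898, and the myelin genes Mag, Cnp and Mbp had 1.03, -0.23 and 0.21 (adjusted p = 0.202 to 0.413).

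The 12 genes with the smallest p among those that rose include signaling and cytoskeletal genes outside the lists. Prkaa2, the catalytic α2 subunit of the energy sensor AMPK, on chromosome 4 from 105029874 to 105109890, had the smallest adjusted p of all. It was at 41.1, 37.9 and 39.4 CPM in NS retinas and at 73.5, 73.2 and 69.3 CPM with MSC-EVs, against 58.7 ± 4.01 CPM in WT (log2 fold change 0.87, standard error 0.07, adjusted p = 0.00409). Rock2, a kinase of the actin cytoskeleton, was at 161, 160 and 160 CPM and 247, 228 and 234 CPM (0.56, adjusted p = 0.00911). Peg10, a paternally expressed gene of retrotransposon origin, was at 20.8, 20.2 and 23.3 CPM and 41, 38.9 and 37.8 CPM (0.88, adjusted p = 0.00911). In none of these genes did the groups overlap. The repressor Etv6, the presynaptic scaffold gene Erc1, the translation termination factor Gspt1, the magnesium handling gene Cnnm4, the exchanger Slc24a4 and the transcription factor Atf7 had 0.63, 0.61, 0.56, 0.51, 0.78 and 0.69 (adjusted p = 0.015 to 0.0209). All of these 9 genes stayed called with the length and GC trend removed. Among the genes called differentially expressed, the guidance ligand Slit3 was at 1.99, 2.20 and 3.16 CPM in NS retinas and 6.80, 5.88 and 10.4 CPM with MSC-EVs (1.67, adjusted p = 0.0288), and the pseudokinase Prag1 at 7.70, 10.8 and 7.05 CPM and 27.5, 19.9 and 23.7 CPM (1.49, adjusted p = 0.0209). The other 11 genes of the Slit and Robo list did not pass the test, and Slit1, Srgap2, Srgap3 and Robo2 had 0.29, 0.13, 0.12 and 0.12. Among all genes called at a log2 fold change of at least 1 in size, the calcium-sensing receptor gene Casr had the largest log2 fold change, 2.84, at 0.0675 to 0.342 CPM in NS retinas and 0.793 to 2 CPM with MSC-EVs (adjusted p = 0.0478, or 0.0502 with DESeq2's size factors).

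Among the genes that fell, Ldb2, a LIM-domain cofactor, was at 44.8, 44.6 and 44.9 CPM in NS retinas and 28.2, 31.8 and 28.3 CPM with MSC-EVs (-0.60, standard error 0.08, adjusted p = 0.0209). The glutathione transferase Gstt1 was at 29.9, 35.9 and 30.3 CPM and 21.3, 19.6 and 16.8 CPM (-0.74, adjusted p = 0.0261), and the kinase activator Mob3b at 10.6, 14.1 and 10.5 CPM and 6.05, 6.35 and 6.05 CPM (-0.93, adjusted p = 0.0288). The length and GC removal ended the call of Gstt1 (adjusted p = 0.0733). The sulfotransferase Ust, the bone morphogenetic protein antagonist Nbl1 and Dpysl2, a protein of growing axons, had -0.61, -0.40 and -0.57 (adjusted p = 0.0265, 0.0364 and 0.038). In the stress response list the sensor gene Atf6 rose (0.37, adjusted p = 0.0423), with Atf3, Psat1, Ern1 and Dnajb9 at 0.77, -0.35, 0.26 and -0.24 (adjusted p = 0.0851 to 0.103) and a median of -0.02 over 36 genes. In the clock list of 25 genes Rorb was the called gene, and Cry1, Dbp, Csnk1d and Rora had 0.34, -0.28, 0.13 and 0.15 (adjusted p = 0.0629, 0.0736, 0.26 and 0.284).

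The deposited table also assigns genes to KEGG pathways. Of 318 KEGG pathways with at least 15 tested genes, Histidine metabolism (median -0.218, 15 genes) and Ribosome (-0.212, 128 genes, 118 below 0, 4 called lower) had the lowest medians, and Oxidative phosphorylation (-0.176, 109 genes, 100 below 0) was also low. The 31 genes of Metabolism of xenobiotics by cytochrome P450 had a median of -0.189, with 16 lower in every MSC-EVs library and 0 higher (13.3% and 12.9% of all genes). The highest medians were those of Hippo signaling pathway - multiple species (0.139, 26 genes, 2 called higher), Mismatch repair (0.132, 22 genes), Graft-versus-host disease (0.125, 27 genes) and Staphylococcus aureus infection (0.123, 39 genes), followed by NOD-like receptor signaling (0.118, 153 genes). In Graft-versus-host disease and Staphylococcus aureus infection MSC-EVs replicate 3 was the lowest library (-0.43 and -0.39), below the lowest NS library (-0.19 and -0.25), and replicates 1 and 2 were at 0.16 and 0.44 and at 0.15 and 0.39. The called Hippo genes, chosen after their values were seen, were Wwtr1, which encodes the coactivator TAZ (52.2 ± 4.47 CPM in NS retinas and 79.6 ± 4.66 CPM with MSC-EVs, SD, n = 3, log2 fold change 0.61, adjusted p = 0.0234), and its partner Tead1 (46.1 ± 1.23 and 60.7 ± 3.34 CPM, 0.40, adjusted p = 0.0401). Jak-STAT signaling held 109 genes with a median of 0.08, 5 called higher and 0 lower (0.914% and 0.251% of all genes). Of them 28 were higher and 8 lower at an unadjusted p under 0.05 (11.6% and 8.6% of all genes). Its level was -0.01, -0.03 and -0.07 with NS and 0.06, 0.15 and -0.09 with MSC-EVs. MSC-EVs replicate 3 was thus the lowest rd10 library. For NOD-like receptor signaling the levels were 0.05, -0.05 and -0.16 with NS and 0.14, 0.16 and -0.15 with MSC-EVs.

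The qPCR and staining list held genes drawn from the study, most of them followed there by qPCR, staining or western blot or named as predicted microRNA targets. Retinal qPCR in the study covered Arg1, Areg, Fgl2 and Nr4a3, and other cytokine genes were measured in cultured cells. By that qPCR the study reports more Arg1 and Fgl2 and less Areg and Nr4a3 with MSC-EVs. The log2 fold changes of these genes had the same signs here. Of the list 22 genes were tested, 12 were above 0 and 0 were called by edgeR's quasi-likelihood test. At an unadjusted p under 0.05, 3 of the list were higher and 4 lower (11.6% and 8.6% of all genes). With DESeq2's Wald test and with the edgeR exact test 7 of them were called, Arg1, Areg, Fgl2, Nr4a3, Hipk2, Galnt2l and Glul, with adjusted p from 3.25e-07 to 0.0344 in the former and from 0.000348 to 0.0416 in the latter. Arg1, Areg and Nr4a3 had log2 fold changes of 3.40, -1.76 and -1.57 (adjusted p = 0.193, 0.0741 and 0.0752). Hipk2 and Galnt2l had 1.14 and -0.99 (adjusted p = 0.138 and 0.16), and Galnt2l shares 98.8% of its 50-base stretches with other genes, mostly Galnt2. The macrophage markers Aif1, Adgre1, Cd68, Mrc1 and Chil3 had -0.16, 0.19, -0.16, 0.79 and 1.65 (adjusted p = 0.512 to 0.88), and Il1b had 0.39 (adjusted p = 0.692). The photoreceptor and synaptic genes Rcvrn, Opn1mw and Dlg4 had -0.06, -0.15 and 0.01 (adjusted p = 0.666 to 0.939), the NF-κB genes Rela and Nfkbia 0.20 and -0.03 (adjusted p = 0.388 and 0.963), and the vesicle marker gene Cd63 0.03 (adjusted p = 0.894). Tnf and Il6 did not pass the filter, with 3 to 8 and 0 to 11 counts in the rd10 libraries. By retinal staining with MSC-EVs, the study reports less of the proteins of Aif1, Adgre1, Cd68 and Gfap. It reports more of those of Mrc1, Rcvrn and Dlg4. Its western blots showed less protein of Rela and less precursor protein of Il1b, and no difference for Nfkbia. The values here are of RNA, and their relation to protein was not tested.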

How the data were processed

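Retinal mRNA of 9 libraries, 3 per group, was sequenced by the authors, and the groups were taken from the labels. The deposited table holds estimated counts per gene, made by the authors and not always whole, and FPKM, the same reads scaled by the authors to transcript length and library size. The submitters' processing notes name fastp, Bowtie2, HISAT2, StringTie 1.3.1 and RSEM, and the genome build is not given in the sources used here. Of 22337 gene identifiers 22283 were found in GENCODE M21 (GRCm38), from which lengths and positions were read.

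Counts were rounded to whole numbers, filtered with filterByExpr (minimum count 10, minimum total 15), scaled by TMM and tested between the 6 rd10 libraries with edgeR 4.0.16 (R 4.3.3; quasi-likelihood, robust). A gene was called at a Benjamini-Hochberg adjusted p under 0.05, and differentially expressed where the log2 fold change also reached 1 in size. Standard errors are the fold change over the root of the F statistic. Printed CPM were scaled by TMM over all 9 libraries, and list levels used log2(CPM + 0.5). An exact permutation test of 3 against 3 cannot go below 0.1 and was not used. Replicates within a group differed by more than sampling noise (chi-square per degree of freedom 9.5 to 31.3). The libraries held 19491721 to 62532357 counts, where 1 count is worth 0.0156 to 0.0489 CPM in the rd10 libraries.

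Alternatives were DESeq2 1.42.0, the edgeR exact test, other normalizations and filters, limma 3.58.1 on log2(FPKM + 1) and log2(FPKM + 0.1), a Y-linked covariate, a replicate block, a thinned MSC-EVs replicate 3 and each library left out. On simulated counts with 200 of 14765 genes changed, 56 of the 65 genes changed 2-fold were called, and 0 genes when none was changed. These counts were drawn with a spread that depended only on the mean level. They lacked the per-gene spread and the library differences of the real data, so the recovered share is no measure of power in these libraries. The members and gene lists were chosen with earlier results of these data known. Named genes are those differentially expressed, the 12 with the smallest p in each direction, up to 5 per list and every called member, the genes of the qPCR and staining list, and the Y-linked genes with their X-linked partners. Others are said to have been chosen after their values were seen. Some genes of the lists are counted with their list and not reported here by name.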

Additional observations from a re-analysis of the deposited data

Results flagged for a closer look

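Y-linked genes were not part of the comparison between groups. Their summed counts were 4379 in MSC-EVs replicate 1 and 4421 in MSC-EVs replicate 2, against at most 10 in an NS library and 23 in MSC-EVs replicate 3, which stood out because the signal lay above that of the control libraries. Retnla, a gene of alternatively activated macrophages that did not pass the filter on low counts, had 32 counts in MSC-EVs replicate 1 and 53 in MSC-EVs replicate 2, against at most 5 in an NS library and 2 in MSC-EVs replicate 3. The same 2 libraries were thus above the others in both, and the part of the Y-linked difference in the Retnla counts was not tested.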

How the results depend on the processing

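The counts of genes differentially expressed, called higher and called lower (9, 135 and 37) were 40, 629 and 281 with DESeq2's Wald test, 48, 480 and 213 with the edgeR exact test and 38, 638 and 388 with all 9 libraries in the fit. The count called lower was 57 with upper-quartile normalization, 60 without a filter, and 80 and 91 with limma on log2(FPKM + 1) and log2(FPKM + 0.1). The share of higher among the called genes was 78.5%, against 63% with upper-quartile normalization and 54.8% and 55.4% with limma. With the Y-linked covariate 28 genes were differentially expressed and 89 higher, and with MSC-EVs replicate 3 as the lone treated library, assumed to vary like the others, 96 were differentially expressed and 148 lower. These 2 settings rest in effect on the same treated library and are not separate checks. Their medians were 0.04 and 0.04 for reactive gliosis, -0.52 and -0.53 for interferon-stimulated genes, which reversed, -0.5 and -0.49 for collagen chains, -0.29 and -0.29 for homeostatic Müller genes and 0.05 and 0.05 for NF-κB regulators. The length and GC removal, an alternative chosen after seeing the data, left 39 higher and 13 lower and medians of -0.12 for ribosomal proteins and -0.07 for oxidative phosphorylation.

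With 1 library left out, the 3 counts ranged from 0 to 82, 0 to 426 and 0 to 250. The medians ranged from -0.22 to -0.14 for homeostatic Müller genes and from 0.05 to 0.19 for NF-κB regulators. The cause of these moves was not tested.

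The replicate block gave 21, 292 and 111 genes. Deviations of same-numbered NS and MSC-EVs libraries correlated at 0.09, 0.18 and 0.28 across genes, each the best match of its library. The study states that littermates were divided between the treatments, but the labels tie the replicate numbers to no shared litter or day. That same-numbered libraries form pairs is thus a hint from the data only, and the main fit used no pairing. Under the block Cd44, Loxl4 and Btc were not called (adjusted p = 0.0656, 0.0627 and 0.0525), and Areg and Glul of the qPCR and staining list were (0.032 and 0.0406).

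Genes of the qPCR and staining list that were not called and turned their sign were Cd63 (0 under upper-quartile scaling, -0.16 with the Y-linked covariate and with replicate 3 alone), Dlg4 (-0.02 with upper-quartile normalization, -0.09 with length and GC removed), Chil3 (-0.06 with limma on log2(FPKM + 0.1), -2.51 with the covariate, -2.52 with replicate 3 alone), Il1b (-0.27 and -0.28 in these last 2), Adgre1 (-0.59 in both), Mrc1 (-2.54 and -2.56, the latter called at an adjusted p of 0.033), Rcvrn (0.26 in both, 0.1 with length and GC removed), Opn1mw (0.11 and 0.1) and Nfkbia (0.08 with length and GC removed). With 1 library left out, the log2 fold changes ranged from -0.05 to 0.12 for Cd63, -0.26 to 0.09 for Rcvrn, -0.26 to 0.12 for Nfkbia, -0.28 to 0.67 for Il1b, -0.04 to 0.49 for Adgre1, -0.47 to 0.19 for Aif1, -0.43 to 0.19 for Cd68 and -0.05 to 0.07 for Dlg4.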
